A study of Mus musculus with 2 samples.

Results

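Heat shock proteins, their co-chaperones and the chaperonins were examined as a set of 88 genes among the 19935 genes named on the arrays. The set holds every gene whose symbol begins with Hspa to Hspe, Dnaja to Dnajc, Bag, Cct or Hsf followed by a number, together with Hsph1. Each gene was read from 1 probe set, and where several probe sets carry the same gene the brightest on average was used. Values came from splenic dendritic cells (DCs), antigen-presenting cells isolated by flow cytometry from wild-type C57BL/6 mice 8 weeks old. Both groups were cultured, 1 with vehicle (titled as medium) and 1 with IL-27, a cytokine of the IL-12 family. The labels give the duration as "ON" and do not say how many animals or cultures went into a sample. Each condition was read on 1 Affymetrix array, so no difference below has a replicate check, and no test, SD or p-value is given. RNA came from a whole sorted population, in which fewer cells of a type and less RNA per cell cannot be told apart.

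Chaperones hold unfolded or partly folded proteins until they fold, pass on or are degraded. Hsp70 proteins bind and release short hydrophobic stretches in a cycle driven by ATP. J-domain proteins (the Dnaj genes) bring clients to Hsp70 and start ATP hydrolysis, while BAG and Hsp110 proteins speed the release of ADP. The barrel-shaped chaperonins, CCT in the cytosol and Hspd1 with Hspe1 in mitochondria, enclose a protein while it folds. Heat shock factors (Hsf genes) are transcription factors, of which Hsf1 is the main activator of cytosolic chaperone genes when unfolded proteins build up there. The endoplasmic reticulum (ER) has its own Hsp70, Hspa5 (BiP), and its own J-domain partners, whose genes are switched on by the unfolded protein response. DCs rely on these systems for protein secretion and for the handling of antigen.

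The promoters that carry the best-known control elements of these genes are shown first, from RefSeq (build GRCm38.p6), as windows from 250 bases before to 50 bases after an annotated transcript start. A heat shock element, to which heat shock factors bind, was searched as 3 alternating units, GAANNTTC followed after any 2 bases by GAA, or the reverse complement, TTCNNGAA followed after any 2 bases by TTC. Matches to these forms overlap each other in longer arrays. An ER stress element was searched as CCAAT and CCACG with any 9 bases between them, or the reverse complement. Of the 88 genes, 73 had at least 1 window. The 3-unit heat shock element stood in 4 of these 73 genes (5.48%), Hsph1, Hspd1, Hspe1 and Dnajb6. Hsph1 and Dnajb6 carried it in each of their 2 windows, and Hspd1 in 1 of its 2 windows. Of all 27025 genes with a window, 179 (0.662%) had it. The ER element stood in 2 of the 73 (2.74%), Hspa5 and Dnajc3, and in 37 of the 27025 (0.137%). A match describes the letters only and is neither a binding site nor a cause.
Hsph1 and Bag3 are given because they were the members past a 2-fold difference upward. Hspd1 is given because 1 of its 2 windows, the one with the element, is shared head to head with Hspe1. Hspa5 and Dnajc3 are given because they carry the ER element. Capitals mark the 3-unit heat shock element in Hsph1 and Hspd1, a 2-unit match (GAANNTTC) in Bag3, and the ER element in Hspa5 and Dnajc3. Bag3 had no 3-unit match within its window. Its 2-unit match ends at the last base of the window, so a unit after it would lie outside the search.
Hsph1, chr5:149636287-149636586, minus strand: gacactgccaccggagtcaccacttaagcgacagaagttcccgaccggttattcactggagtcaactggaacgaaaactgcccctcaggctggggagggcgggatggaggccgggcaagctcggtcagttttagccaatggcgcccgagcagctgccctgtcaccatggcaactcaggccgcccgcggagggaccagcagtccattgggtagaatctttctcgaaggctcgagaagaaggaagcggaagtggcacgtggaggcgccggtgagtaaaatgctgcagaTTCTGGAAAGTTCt
Bag3, chr7:128523333-128523632, plus strand: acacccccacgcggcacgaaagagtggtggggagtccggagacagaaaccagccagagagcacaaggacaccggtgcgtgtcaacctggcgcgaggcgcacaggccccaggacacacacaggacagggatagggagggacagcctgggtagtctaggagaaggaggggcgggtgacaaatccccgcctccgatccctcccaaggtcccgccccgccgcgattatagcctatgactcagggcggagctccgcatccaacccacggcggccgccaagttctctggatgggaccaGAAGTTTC
Hspd1, chr1:55087883-55088182, minus strand: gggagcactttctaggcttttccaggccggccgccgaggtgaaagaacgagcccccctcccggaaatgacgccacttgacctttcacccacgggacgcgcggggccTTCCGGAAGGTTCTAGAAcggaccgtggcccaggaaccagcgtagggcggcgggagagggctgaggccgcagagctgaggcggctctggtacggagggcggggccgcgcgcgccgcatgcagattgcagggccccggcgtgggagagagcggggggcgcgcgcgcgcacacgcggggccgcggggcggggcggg
Hspa5, chr2:34771840-34772139, plus strand: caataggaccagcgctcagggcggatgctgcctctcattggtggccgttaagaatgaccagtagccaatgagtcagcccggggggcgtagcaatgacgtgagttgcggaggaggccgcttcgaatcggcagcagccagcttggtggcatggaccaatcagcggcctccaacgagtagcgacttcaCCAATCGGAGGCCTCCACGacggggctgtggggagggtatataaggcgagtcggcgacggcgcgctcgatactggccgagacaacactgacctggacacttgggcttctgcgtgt
Dnajc3, chr14:118937682-118937981, plus strand: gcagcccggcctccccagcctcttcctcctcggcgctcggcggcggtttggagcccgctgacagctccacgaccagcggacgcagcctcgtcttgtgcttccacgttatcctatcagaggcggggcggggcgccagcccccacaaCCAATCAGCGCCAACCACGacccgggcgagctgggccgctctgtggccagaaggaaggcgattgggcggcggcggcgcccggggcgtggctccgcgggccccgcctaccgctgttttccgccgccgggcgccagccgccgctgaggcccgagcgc
The Hspe1 window lies on the opposite strand and has 285 bases in common with this Hspd1 window, so the same capitals belong to both genes. The 2-unit match is frequent. GAANNTTC or TTCNNGAA stood in 21 of the 73 genes (28.8%) and in 17.0% of all genes with a window.

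The deposited values are linear intensities, and differences below are log2(IL-27) minus log2(vehicle). The arrays did not have the same distribution. Their medians were 92.4 with vehicle and 98.9 with IL-27, and their 75th percentiles were 267 and 215. The difference therefore depended on level, and for genes of middle level most differences were below 0. For that reason each difference is also given with the level trend removed, that is, after subtracting a smooth curve of the difference on the mean level of all probe sets. The size rule called a gene higher or lower where it differed at least 2-fold and its brighter array was at or above the median of all values, an intensity of 96.2. Of the 88 genes, 65 reached that level. Olfactory receptor genes, which DCs are not expected to transcribe, gave a limit for dim genes, their 95th percentile of 77.3 with vehicle and 129 with IL-27, and 21 of the 88 genes lay at or below it on both arrays.

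By that rule 2 members were higher with IL-27, Hsph1 and Bag3, and 3 were lower, Dnajc9, Hspa14 and Dnajc16. The other 83 were neither. The higher members are 2.27% of the set against 0.848% of all genes, and the lower members 3.41% against 7.36%. With the level trend removed 3 members were higher, the third being Hsf2, against 1.34% of all genes, and 0 were lower against 3.7%. At a 1.5-fold rule 5 members were higher, where 3.28% of all genes were, and 10 of 88 were lower, where 18.8% of all genes were. With the trend removed 6 were higher, where 4.93% of all genes were, and 3 of 88 were lower, where 11.1% of all genes were. Of the 5 higher at 1.5-fold as deposited, Hspa1l and Hspb2 lay at or below the olfactory limit on both arrays. After quantile normalization the higher members were again Hsph1 and Bag3, Dnajc9 was the lower one, and 1.18% and 4.54% of all genes were higher and lower. Over all genes, higher genes made up 10.3% of those past the rule as deposited, 26.6% with the trend removed and 20.6% after quantile normalization. The median difference of the 88 genes was -0.04, and -0.03 with the trend removed, where all genes had 0.04 and -0.02.

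**Figure D1:**
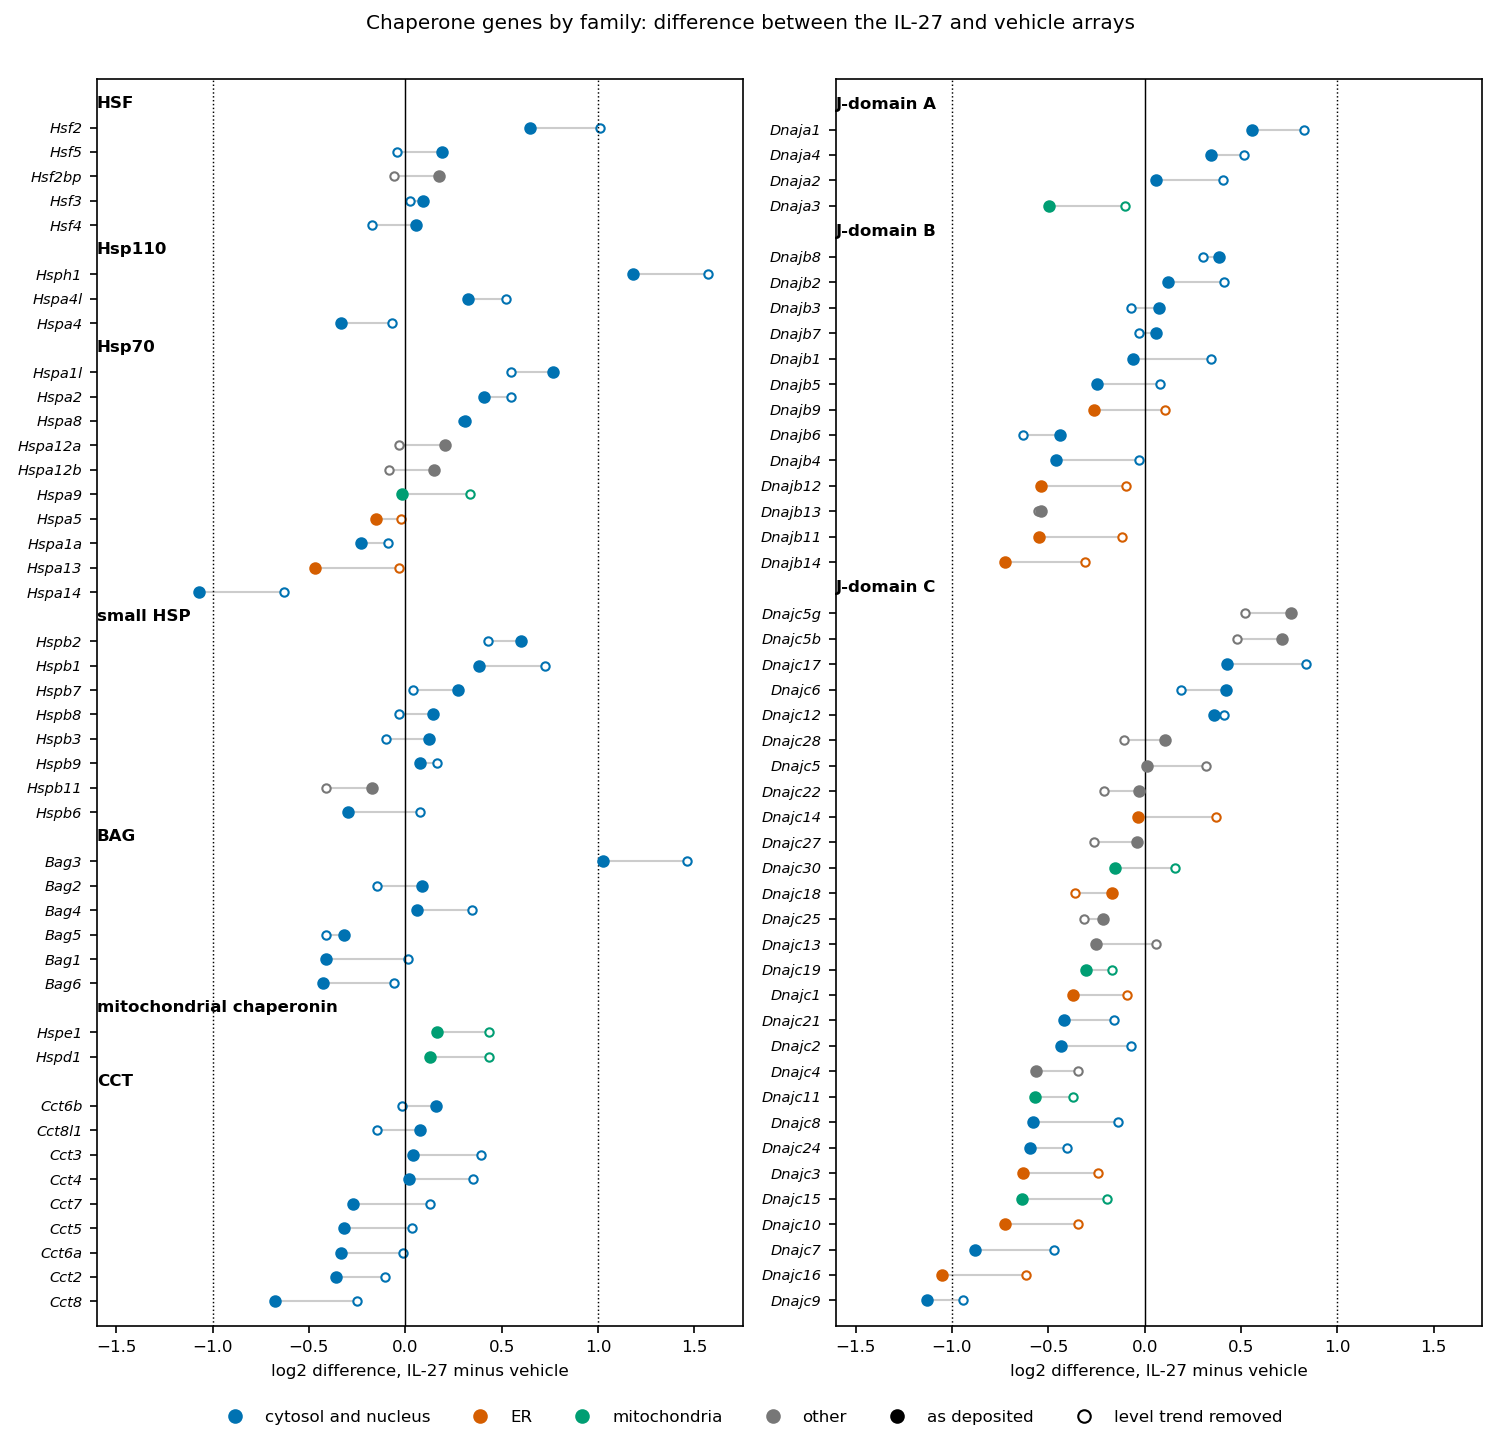
Log2 difference (IL-27 minus vehicle, horizontal axis) of each of the 88 genes, listed by family, with filled points as deposited, open points with the level trend removed, and colour for the compartment. Dotted lines mark a 2-fold difference: Hsph1 and Bag3 lie beyond it upward on both scales, while Dnajc9, Hspa14 and Dnajc16 lie beyond it downward only as deposited.

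Hsph1 (probe set 10535904), the cytosolic Hsp110 that exchanges nucleotide on Hsp70 and helps to dissolve aggregates, measured 367 with vehicle against 834 with IL-27. The ratio was 2.27-fold upward, a difference of 1.18, and 103 of 19935 genes had a larger one. With the trend removed its difference was 1.57. It was the member with the largest positive difference on both scales. The 3-unit element in its window above lies after the annotated start. Hspa4, another cytosolic Hsp110, had 1255 and 995, a difference of -0.33 (-0.07 with the trend removed). Hspa4l, a relative of it first known from testis, had 137 and 171, a difference of 0.32 (0.52 with the trend removed). Members of this small family thus had differences of both signs.

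Bag3 (probe set 10557992) encodes the co-chaperone that links Hsp70 to small heat shock proteins and to selective autophagy. It measured 201 with vehicle against 408 with IL-27, a ratio of 2.04-fold upward and a difference of 1.03, and 166 genes had a larger one. With the trend removed it was 1.46. Its difference was just inside the 2-fold rule as deposited and just outside with median centring (0.95) or an offset of 16 (0.97). The other BAG genes did not share it. Bag1, a nucleotide exchange factor that couples Hsp70 to the proteasome, had 298 and 224 (difference -0.41, or 0.01 with the trend removed). Bag6, which guards tail-anchored and mislocalised membrane proteins, had 716 and 532 (-0.43, or -0.06). Bag4 and Bag5 had differences of 0.06 and -0.32, with the IL-27 value of Bag5 under the olfactory limit, and Bag2 was under it on both arrays.

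Of the 5 genes with an Hsf symbol, Hsf2 alone exceeded the olfactory limit on either array. Hsf2 (probe set 10363195), a heat shock factor that can form mixed trimers with Hsf1, measured 165 with vehicle against 258 with IL-27, a ratio of 1.57-fold and a difference of 0.65, which did not pass the rule as deposited and passed it with the trend removed (1.01). All 5 differences were above 0 as deposited and 2 of 5 with the trend removed, so the sign of 3 of the other 4 turned with the level correction. Hsf2bp, counted here by its symbol, is a binding partner of Hsf2 and no heat shock factor. Hsf1 had no probe set of its own in the annotation and was not analysed here.

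Among the Hsp70 genes of the cytosol Hspa14 was lower and the bright forms Hspa8 and Hspa1a differed less than 1.5-fold. Hspa8 (probe set 10584572), the constitutive Hsc70 that also uncoats clathrin vesicles, had 5675 with vehicle and 7025 with IL-27, a difference of 0.31 (0.30 with the trend removed). Its 3 probe sets spanned 0.31 to 0.35. Hspa1a, a stress-inducible Hsp70, had 2616 and 2228, a difference of -0.23 (-0.09). Hspa1a has a near-identical neighbour, Hspa1b, which had no probe set of its own, so the value of Hspa1a is uncertain individually. Hspa14 (probe set 10479775), an Hsp70-like protein of the ribosome-associated complex, had 480 and 229, 2.10-fold lower, a difference of -1.07, with 1230 genes lower still. With the trend removed it was -0.63, short of the rule. The inducible Hspa1a thus did not share the upward difference of the inducible Hsph1, and the difference of Hspa1a was near 0 with the trend removed.

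Hspa2 had 122 with vehicle and 162 with IL-27 (difference 0.41), and Hspa1l, Hspa12a and Hspa12b gave no more than the olfactory limit on either array. Of the 8 genes of small heat shock proteins, which hold aggregating proteins without using ATP, 4 were over the level minimum and 4 were within the olfactory limit on both arrays. Hspb2 was in both of these groups and Hspb8 in neither. Hspb1 (Hsp27) had 172 and 224, a difference of 0.38 (0.73 with the trend removed), and its other probe set differed by 0.37. Hspb6 had 237 and 193 (-0.30, or 0.08 with the trend removed). Hspb8, the partner of Bag3, had 81.1 and 89.7, the second below the olfactory limit. The 8 genes had a median difference of 0.13 (0.06 with the trend removed), and none passed the rule.

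**Figure D2:**
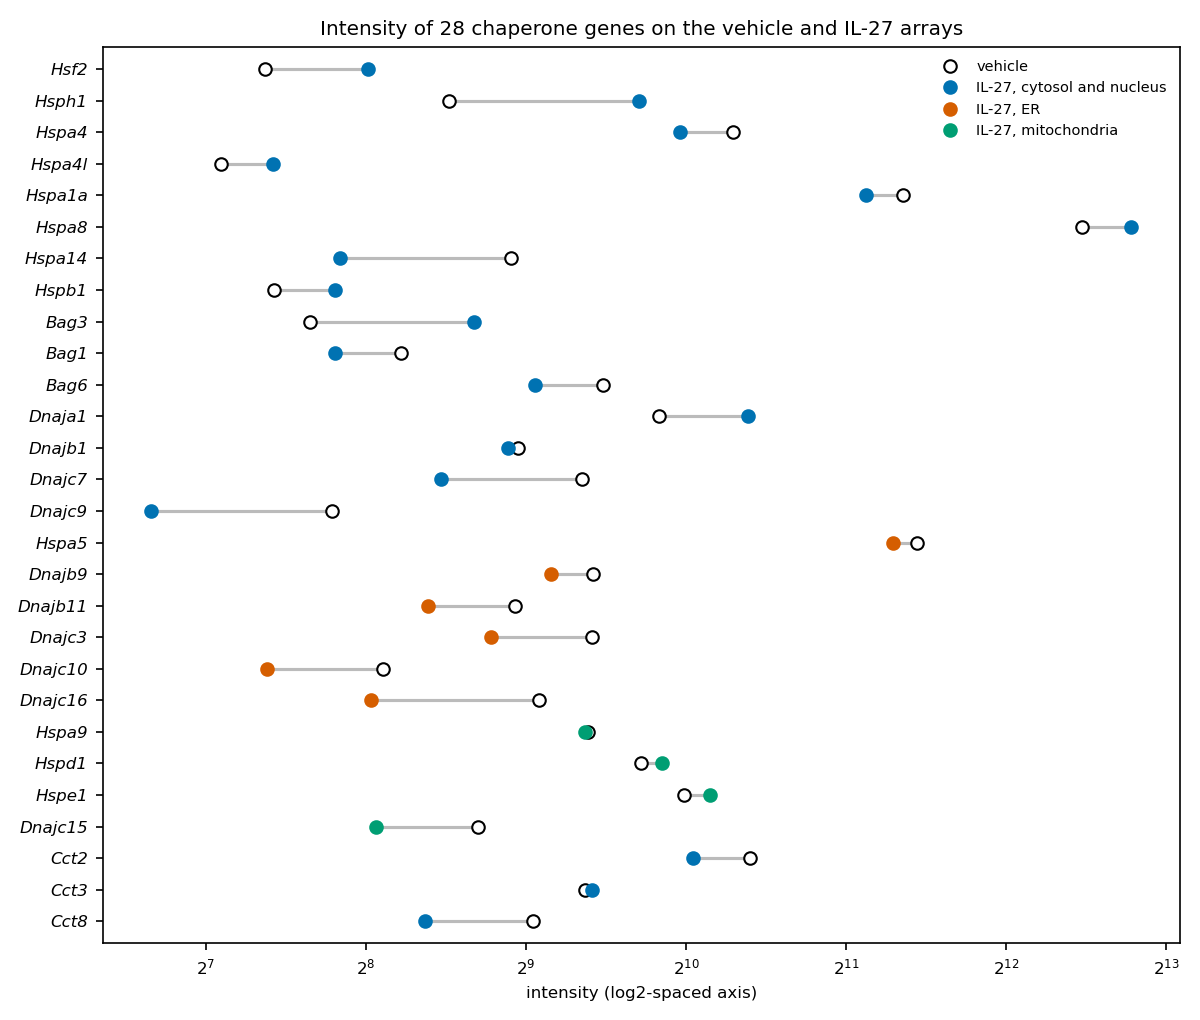
Intensity (horizontal axis, log scale to base 2) of 28 members on the vehicle array (open) and the IL-27 array (filled, coloured by compartment). Line length shows the difference, and levels of different genes are not comparable because probe sets differ in response: the lines of Hsph1 and Bag3 run to the right and those of Hspa14, Dnajc9 and Dnajc16 to the left.

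The J-domain genes, the partners that select Hsp70 clients, were the largest group, with 45 members. Their median difference was -0.25 (-0.10 with the trend removed), 2 were lower and 0 higher. The lower ones are 4.44% of the group, where 7.36% of all genes were lower, and neither passed the rule with the trend removed. Type A genes, built like bacterial DnaJ, stood mostly above 0. Dnaja1 (probe set 10521587), the main cytosolic partner of Hspa8, had 909 with vehicle and 1337 with IL-27, a difference of 0.56 (0.82 with the trend removed), although its other single-gene probe set differed by -0.17. Dnaja1, like Hspd1 and Hspe1, has processed pseudogenes whose transcripts could bind the same probes, so these values are uncertain individually. Dnaja2 had 670 and 699 (0.06, or 0.41). Dnaja4 had 130 and 165 (0.34, or 0.52). Dnaja3, the mitochondrial member Tid1, was the exception, with 267 and 190, a difference of -0.49 (-0.10).

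Of the type B genes none passed the rule. Dnajb1 (Hsp40), a heat-inducible partner of Hsp70, had 493 and 473, a difference of -0.06 that turned to 0.35 with the trend removed. Dnajb4 had 321 and 233 (-0.46, or -0.03). Dnajb6, which suppresses aggregation, was read from a dim probe set, at 95.6 and 70.4, and it carries the 3-unit heat shock element. Probe sets annotated with several genes, 10 of which include a member, were not used, so this value may not stand for the gene as a whole. Dnajb13, a protein of cilia and sperm tails, had 138 and 95.3, the second below the olfactory limit (-0.54, or -0.55).

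Type C genes, which share only the J domain, held both lower J-domain members. Dnajc9 (probe set 10417829), a co-chaperone of histones H3 and H4, had 221 with vehicle and 101 with IL-27, the second below the olfactory limit. It was at least 1.71-fold lower against that limit, and its measured difference was -1.13 (-0.94 with the trend removed). Dnajc16, an ER membrane protein, had 542 and 261, 2.07-fold lower, a difference of -1.05 (-0.62). Dnajc7, which holds clients between Hsp70 and Hsp90, was just outside the rule with 652 and 355, a difference of -0.88 (-0.47). Of the 28 type C genes 21 had a difference below 0, and 19 with the trend removed. Of all 19935 genes 9285 were below 0, and 10692 with the trend removed. Among the 11140 over the level minimum, which 21 of the 28 reached, 7895 were below 0, and 6237 with the trend removed. The largest positive difference among those over the olfactory limit was that of Dnajc17, a nuclear protein, with 210 and 283 (0.43, or 0.84 with the trend removed), named after its values were seen. Dnajc13, an endosomal protein, had 15 probe sets, whose differences ranged from -0.82 to -0.13 with all 15 below 0.

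The chaperonin CCT, which folds actin and tubulin, is built from different subunits of which 1, Tcp1, lies outside the symbol rule. The 7 subunits other than the testis form Cct6b and the related Cct8l1 had a median difference of -0.32, which turned to 0.04 with the trend removed. None passed the rule. Cct3 had 662 and 681 and Cct4 745 and 755, differences of 0.04 and 0.02 (0.39 and 0.35 with the trend removed). Cct2 had 1353 and 1053 (-0.36, or -0.11) and Cct5 740 and 594 (-0.32, or 0.04). Cct6a had 892 and 707 (-0.33, or -0.01) and Cct7 559 and 463 (-0.27, or 0.13). Cct8 differed most, with 528 and 330, a difference of -0.68 (-0.25). Tcp1 had 650 and 677, a difference of 0.06 (0.41). Subunits of this 1 complex therefore spanned -0.68 to 0.06 on the deposited scale.

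Compartments were assigned by hand from textbook knowledge, so the groups below rest on that choice. All 12 ER members had a difference below 0, with a median of -0.50 and 1 of 12 lower by the rule. The curve of all probe sets, read at the levels of these 12 genes, had a median of -0.40. With it subtracted the median was -0.11, 10 of 12 were below 0 and none passed the rule. The 54 members of cytosol and nucleus had a median of 0.06 (0.03 with the trend removed), with 32 of 54 above 0, where 10647 of all 19935 genes were. Among the 41 of them over the level minimum the median was -0.06, with 20 above and 21 below 0. The 8 mitochondrial members had -0.23, with 6 below 0, and the median turned to 0.03 with the trend removed. Among genes of any kind over the level minimum the median was -0.34, with 7895 of 11140 below 0. With the trend removed it was -0.08, with 6237 of 11140 below 0. The mixed remainder of 14 members had a median of -0.01 (-0.10 with the trend removed), with 7 of 14 below 0. No difference between compartments was tested.

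**Figure D3:**
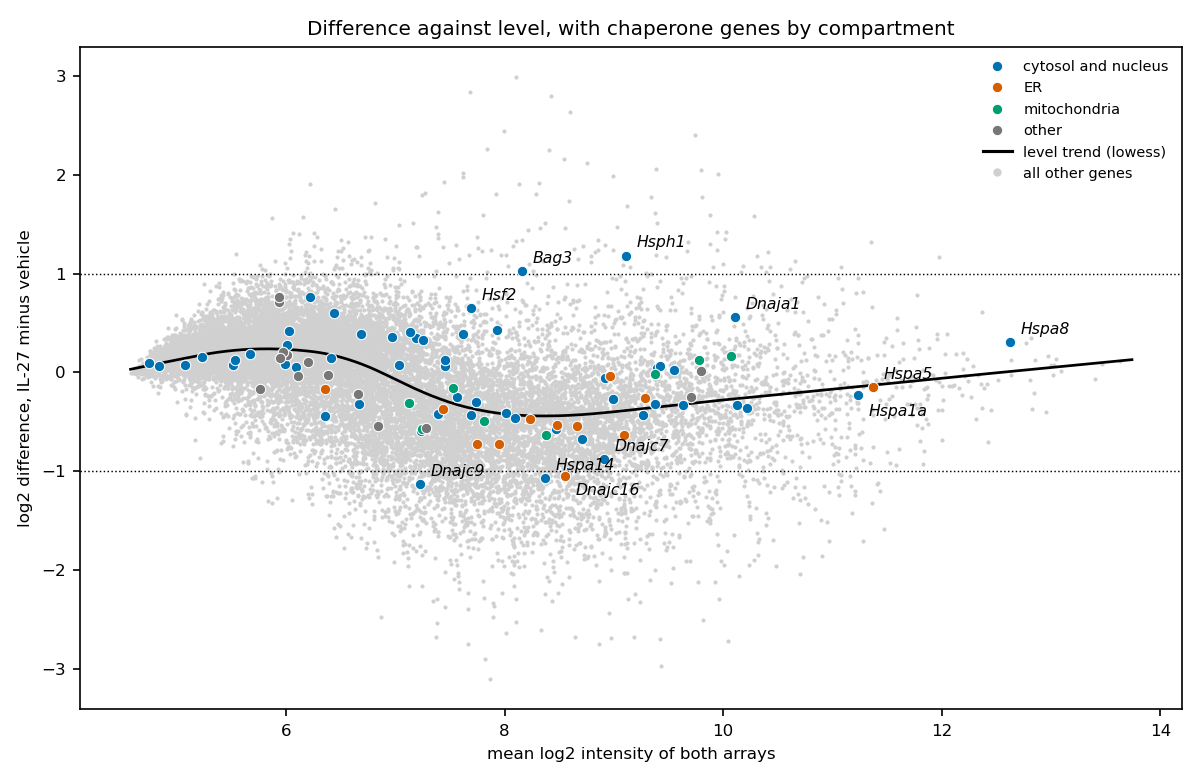
Log2 difference (IL-27 minus vehicle) against the mean log2 intensity of both arrays for all genes (grey) and the 88 members (coloured by compartment), with the lowess curve of all probe sets in black and dotted lines at a 2-fold difference. Of the 12 ER members 10 lie below the curve, and Hsph1, Bag3 and Hsf2 stand above it.

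In the ER, Hspa5 (probe set 10471586), the Hsp70 that holds nascent secretory proteins and keeps the stress sensors silent, had 2787 with vehicle and 2508 with IL-27, a difference of -0.15 (-0.02 with the trend removed). Dnajc3 (p58IPK), a BiP partner whose window carries the same ER element, had 680 and 439, a difference of -0.63 (-0.24). Dnajc10, a J-domain protein that also reduces disulfides, had 275 and 167 (-0.72, or -0.35). Dnajb11, a soluble BiP partner, had 489 and 334 (-0.55, or -0.12). Dnajb9, a partner induced by the unfolded protein response, had 684 and 571, a difference of -0.26 that turned to 0.10 with the trend removed. Dnajb14, a membrane protein, had 318 and 193 (-0.72, or -0.31), and Hspa13 had 353 and 255 (-0.47, or -0.03). At a 1.5-fold rule 4 of the 12 ER members were lower (1 with the trend removed), where 18.8% of all genes were (11.1% with the trend removed).

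In mitochondria the chaperonin genes were above 0 and the 5 J-domain genes below 0 as deposited. Hspd1 (Hsp60; probe set 10375240) had 843 with vehicle and 921 with IL-27, a difference of 0.13 (0.43 with the trend removed). Hspe1 (Hsp10; probe set 10455588), the lid of the Hspd1 barrel, had 1014 and 1135, a difference of 0.16 (0.43). On these probe sets the genes that share the window shown above had nearly the same difference. Another probe set of each was less close, at 0.20 for Hspd1 and 0.11 for Hspe1 (0.59 and 0.38 with the trend removed). Any part of the shared window in this was not tested. Hspa9 (mortalin), which pulls proteins through the inner membrane, had 670 and 662, a difference of -0.02 (0.34). Dnajc19, of the import motor, had 155 and 125 (-0.31, or -0.17). Dnajc15 had 417 and 268, a difference of -0.64 (-0.20). None of the 8 passed the rule.

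Other genes of the folding pathways, outside the symbol rule, were described from lists. Of 19 measured genes of Hsp90 and its co-chaperones none passed the rule, and their median was -0.32, which turned to 0.12 with the trend removed. Hsp90aa1, the inducible cytosolic Hsp90, had 1695 and 2204, a difference of 0.38 (0.56). Stip1 (Hop), which joins Hsp70 to Hsp90, had 650 and 748 (0.20, or 0.55). Stub1 (CHIP), the ubiquitin ligase that marks chaperone clients for degradation, had 346 and 193 (-0.84, or -0.42). Ppp5c and Fkbp4 of the same list had differences of -0.85 and -0.67 (-0.46 and -0.31). Of the 19 genes 12 were below 0 and 7 above (9 and 10 with the trend removed). Among 29 genes of ER folding and the unfolded protein response 2 were lower (6.90%, where 7.36% of all genes were), Pdia4 and Sdf2l1. Their differences were -1.24 and -1.22 (-0.90 each with the trend removed, short of the rule). The median of that list was -0.39 (-0.03). Hsp90b1 (GRP94), the ER Hsp90, had 2550 and 1625, a difference of -0.65 (-0.48). Xbp1 and Ddit3, transcription factors of the unfolded protein response, had differences of 0.28 and 0.25 (0.52 and 0.60). Among 10 prefoldin and other chaperonin partners 1 was lower (10%, where 7.36% of all genes were), Uri1, by -1.26 (-0.83).

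Of 8 measured genes in a list of other heat-induced genes 3 were higher and none lower, with a median of 0.63 (1.03 with the trend removed), where 0.848% of all genes were higher and 7.36% lower. Zfand2a (AIRAP), an arsenite- and heat-inducible protein that binds the proteasome, had 1086 with vehicle and 2249 with IL-27, a difference of 1.05 (1.26). Sqstm1 (p62), the autophagy receptor for ubiquitinated proteins, had 2688 and 6055, a difference of 1.17 (1.23). Gadd45b, a stress-induced gene with wider control, had 1088 and 2385, a difference of 1.13 (1.34). Of the other 5, Hmox1, the haem-degrading enzyme, had 4827 and 4334, a difference of -0.16 (-0.11). Rrad had 0.67 (1.06), and Chordc1, which is also counted in the Hsp90 list, 0.58 (0.99). Serpinh1 and Cryab did not reach the level minimum and had 0.35 (0.11) and 0.12 (-0.06). The list was drawn up by hand with earlier results of these data known, so its counts are no independent check. Its genes answer to other stresses too.

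**Figure D4:**
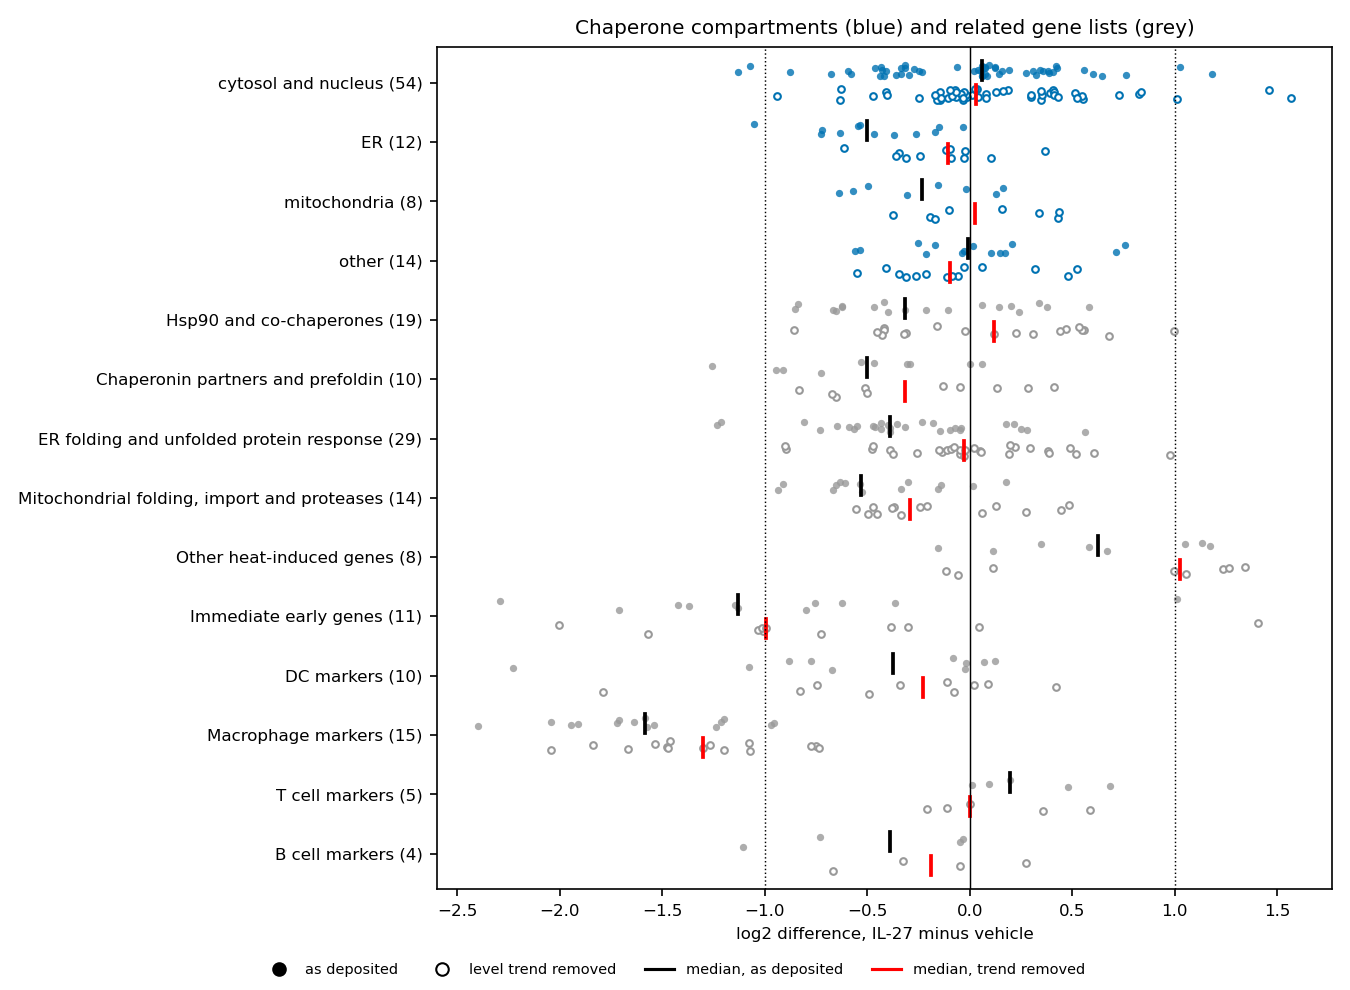
Log2 differences (IL-27 minus vehicle) of the members by compartment (blue) and of related lists (grey), with the number of genes in brackets, filled points as deposited, open points with the level trend removed, and vertical bars at the medians. The 12 ER members lie below 0 as deposited, other heat-induced genes mostly above it, and macrophage markers furthest below.

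Markers of cell types also differed between the arrays, and none of the listed markers was higher by the rule. For the counts that follow, 7.36% of all genes were lower, and 13.2% of genes over the level minimum. Macrophage markers were lower for 13 of 15 genes, with a median of -1.58 (-1.30 with the trend removed). Their summed intensity was 31646 with vehicle and 11081 with IL-27, and Cd163 was at 465 and 88.1, the second within the olfactory range. Of 10 DC markers 2 were lower, Flt3 and Bcl11a, and only Bcl11a with the trend removed. Itgax (CD11c) had 3371 and 1829, and H2-Ab1, a class II chain, 8357 and 8222. The 5 T cell markers had differences above 0 but were dim, at most 82.0 and 128. Their IL-27 values were all under the olfactory limit, and 3 of 5 lay within it on both arrays. Of 4 B cell markers 1, Ms4a1, was lower (-1.11, or -0.67 with the trend removed, short of the rule). Immediate early genes, which are switched on rapidly by many stimuli, were lower for 6 of 11, with Fos at 2199 and 450. The part of these shifts in the chaperone values was not tested.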

How the data were processed

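The values are linear intensities as the authors deposited them, 1 per probe set and array for 28815 probe sets. How they were background-corrected, summarized and normalized is not given in the sources used here. The build named, per the submitters' processing notes, is mm8. Affymetrix biotin labelling was used, per the labels' protocols. GEO's platform annotation gave 1 gene to 21780 probe sets, several to 1605 (not named) and none to 5430. The 88 members used 109 probe sets, 81 members having 1, and all 88 gene IDs matched RefSeq (GRCm38.p6). Intensities, all above 0, were taken to log2 with no pseudocount. The level trend was a lowess curve (span 0.3, statsmodels 0.14.6). In steps of 1 in log2 level, the median left after its removal was at most 0.03 in size. Calculations used Python 3.11.15 and pandas 2.3.3 and were tested on simulated data, whose level trend was given the shape of the real one after an invented shape had left false calls among bright probe sets. Members, lists and rules were chosen with earlier results of these data known. Named members were all those past the size rule, up to 3 per family with the largest difference at the level minimum, and genes listed by name. Related genes were picked by the largest differences per list and by name, and not every gene so picked is given above. Bag2, Bag4, Bag5, Cct6b, Cct8l1, Chordc1, Cryab, Dnajc13, Dnajc15, Dnajc17, Hmox1, Hsf2bp, Hspa12a, Hspa12b, Hspa2, Ier3, Rrad and Serpinh1 were named beside these after their values were seen. Promoter motifs were chosen after the differences were seen. Alternatives were quantile normalization, median centring, trend removal, an offset of 16, a 1.5-fold rule, other level minimums, the olfactory limit as a floor, and means of probe sets or lists. Where both arrays were at or under the olfactory limit, or the limit turned the sign, no fold against it was taken, a choice made after that output was seen. With 1 array per condition, precision is unknown.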

Additional observations from a re-analysis of the deposited data

How the results depend on the processing

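Results are from 1 array per condition, so leaving out a replicate was not possible. No paired analysis was possible because each group had 1 array. Of the 2 higher members, Hsph1 stayed past the rule under each alternative run, and the count was 1 with median centring and 1 with an offset of 16, where Bag3 was at 0.95 and 0.97, and 5 at 1.5-fold. Of the 3 lower members, 1 was left after quantile normalization and 0 with the trend removed, and 10 were lower at 1.5-fold. Dnajc9 was also lost with the level minimum at the 75th percentile and with the olfactory limit as floor. List medians near 0 changed sign. The Hsp70 family, at 0.07, had -0.0094 with quantile normalization, -0.010 with median centring, -0.027 with the trend removed, -0.011 by the mean, -0.085 with members over the level minimum only, and -0.15 with the olfactory limit as floor. The HSF family, at 0.17, had -0.035 with quantile normalization and -0.044 with the trend removed. Members of cytosol and nucleus, at 0.06, had -0.015 with median centring, -0.0082 by the mean, -0.062 over the level minimum and -0.062 with the olfactory limit. Mitochondrial members turned from -0.23 to 0.027 with the trend removed. The mixed remainder, at -0.01, had 0.022 by the mean, and BAG genes, at -0.13, had 0.0033 by the mean. The cause was not tested, beyond what each alternative's construction shows. The other 117 counts and medians kept their sign and lay within 1.5 times or a log2 shift of 0.58. Of the named members no called value changed sign. Against the olfactory limit 26 members have no fold, 21 of them because both arrays were at or under it.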

Other observations

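Immediate early genes went mostly the opposite way to the heat-induced list. Both lists were drawn up with earlier results of these data known, so the contrast is no independent check. Of the 11 immediate early genes, 6 were lower and 1 was higher as deposited, with a median of -1.13. Over all genes 7.36% were lower and 0.848% higher. Fos and Fosb, subunits of the AP-1 transcription factor, were 4.89-fold and 3.27-fold lower, and Ier2 2.68-fold, at 401 with vehicle and 149 with IL-27. Ier3, a stress-induced survival gene chosen here after its values were seen, was the higher one, at 161 and 326.

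Genes of mitochondrial folding, import and proteolysis had a median of -0.53 over 14 genes (-0.29 with the level trend removed), and none passed the 2-fold rule. Afg3l2, an inner membrane protease, had 418 and 218, a difference of -0.94 (-0.50). Trap1, the mitochondrial Hsp90, had 512 and 273, a difference of -0.91 (-0.47), and Grpel1, the exchange factor of Hspa9, 257 and 203, a difference of -0.34 (0.06).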
